A study of Mus musculus with 6 samples.

Results

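Mast cell proteases and receptors were described here as a set of 10 genes in mouse colon tumors: the chymases Mcpt1, Mcpt2, Mcpt4 and Cma1, the carboxypeptidase Cpa3, the tryptases Tpsb2 and Tpsab1, and the receptors Kit, Fcer1a and Ms4a2. Members were chosen by name, with earlier results of these data known. Each symbol had exactly 1 probe set. The 10 genes are thus 10 of the 19938 symbols that the platform annotation gives to single-symbol probe sets. For 8 members the mean signal passed a filter on low levels (log2 5.88, which is the 20th percentile over all sets), and those of Fcer1a and Ms4a2 did not. Colon tumors were dissected by laser from 2 genotypes. Those called double knockout tumors came from 3 mice with the genotype CDX2P-G19Cre;Apcflox/flox;Tgfbr2flox/flox, and those called Apc knockout tumors from 3 mice with the genotype CDX2P-G19Cre;Apcflox/flox. By their labels all mice were 3 weeks old and of the strain C57BL/6J, and each gave 1 Affymetrix Mouse Gene 1.0 ST array, so a tumor's value has no error of its own. Every tumor, those of the comparison group included, carried the floxed Apc alleles and the Cre. The Cre is driven by a promoter of human CDX2 and becomes active by chance frameshifts in cells of the colon epithelium. It is not directed at mast cells, which carry the same floxed alleles. Tumor areas were dissected from hematoxylin-stained frozen sections, and how much stroma entered each dissection is not given in the sources used here.

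Mast cells are resident granulocytes that store proteases, histamine and proteoglycans and release them when antigen cross-links IgE on their surface receptor. In the mouse, mucosal mast cells lie in and beside the gut epithelium and make the chymases Mcpt1 and Mcpt2. Connective-tissue mast cells lie around vessels, in the submucosa and in muscle and make the chymases Mcpt4 and Cma1 together with tryptases and Cpa3. Kit is the receptor for stem cell factor and is needed by mast cells to survive. In cultured mast cells, TGF-β1 is known to induce the mucosal chymases.

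No member passed the adjusted threshold of the group comparison, and Cma1 alone had a confidence interval that left out 0. The signals of most members set 1 tumor, double knockout tumor 1, apart from the other 5. Mean signals were higher in double knockout tumors for all 10 members, where 52.3% of the 19506 probe sets tested and 53.1% of all 23410 sets with a symbol, unfiltered, had a higher mean. Since the filter was on the mean of all tumors, Mcpt4 and Cma1 passed it through the double knockout group, their Apc knockout means (5.65 and 5.69) being below it. The median log2 fold change was 0.54 over the 10 members, against 0.01 over all sets tested. None of the members passed limma (0 of 10 at an adjusted p under 0.05, where 0% of all sets passed and the smallest adjusted p of any set was 0.606). At an unadjusted p under 0.05, limma called 1 member, Cma1, which was higher, and 0 lower, against 1.78% of all sets higher, 3.82% lower and 5.6% in either direction. Without the filter on level it called the same count of 1 member, against 5.4%. The unpaired test named in the methods, run here with equal variances, called 0 of 10, against 5.12%. In 0 of 10 members were the groups free of overlap, against 12.2% of all sets (5.25% with double knockout higher). Mcpt1, Mcpt2 and Cpa3, 3 of 10, had a mean at least 2-fold higher in double knockout tumors, against 0.872% of all sets. Without double knockout tumor 1, 3 members had a higher mean and 7 a lower one, and the median was −0.03. With 3 tumors a group, a two-sided exact permutation test cannot give a p under 0.1. In bulk tissue of this kind, fewer cells of a type and less RNA per cell cannot be told apart.

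**Figure D1:**
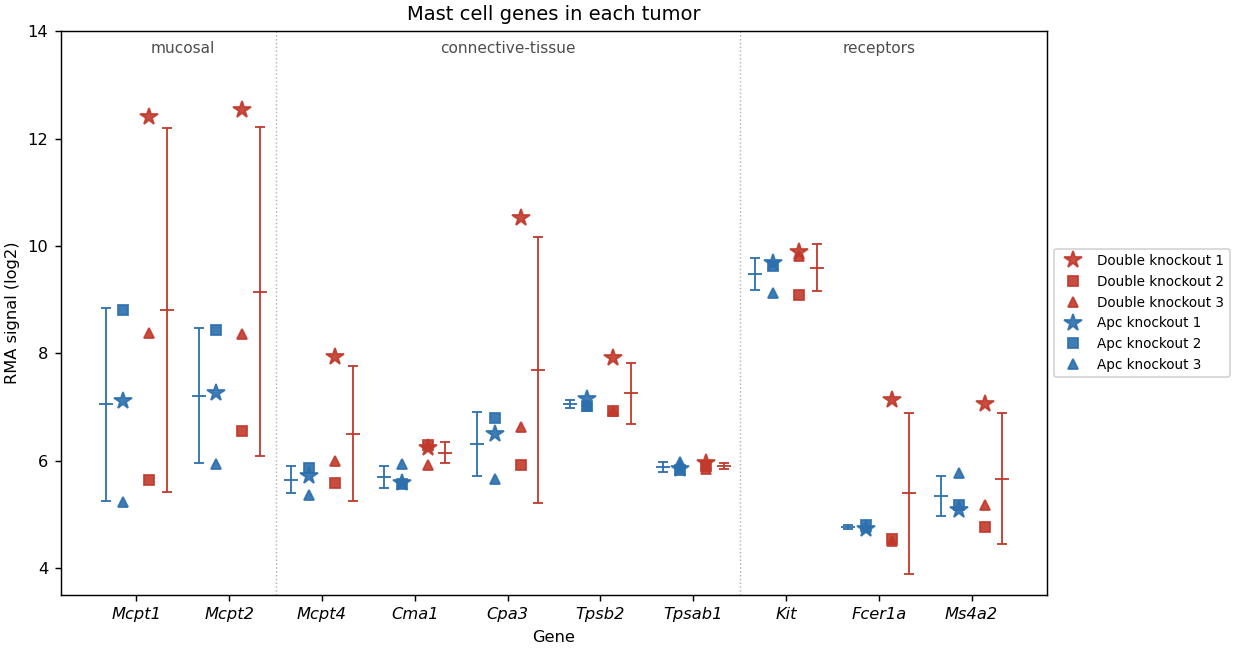
Log2 signal of each mast cell gene in each of the 6 tumors (points; red, double knockout; blue, Apc knockout), with the mean and SD of each group of 3 beside them. Double knockout tumor 1, the red star, lies at 12.39 for Mcpt1 and 12.54 for Mcpt2, above every other tumor, while Cma1, Tpsab1 and Kit show no such separation.

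The targeted genes were read first. In double knockout tumors 1 to 3 the log2 signals of Tgfbr2 were 10.98, 10.35 and 10.47, and they were 11.35, 11.37 and 11.09 in Apc knockout tumors 1 to 3. Each double knockout tumor was below each Apc knockout tumor (log2 fold change −0.67, standard error, SE, 0.19, limma adjusted p = 0.821). Whether its probes lie in the deleted exons was not determined, so this level does not check the genotype, and neither does that of Apc, at 10.16 to 10.84 over the 6 tumors. Double knockout tumor 2 was the least like the rest over all probe sets (correlations of 0.956 to 0.968 with other arrays, against 0.98 to 0.988 among the other 5). Epcam, an epithelial adhesion molecule, was between 12.33 and 12.67 in the 6 tumors, and Cdx2, a transcription factor of intestinal epithelium, was at 8.24 in double knockout tumor 2 and between 10.08 and 11.18 elsewhere. Of 12 smooth muscle markers, 11 had their highest signal in double knockout tumor 2, which was highest for 28.5% of all sets tested.

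Mcpt1 encodes the β-chymase that mucosal mast cells release into the gut lumen and blood. Its log2 signals were 12.39, 5.65 and 8.37 in double knockout tumors 1 to 3, and they were 7.11, 8.81 and 5.22 in Apc knockout tumors 1 to 3. The highest, double knockout tumor 1, was 12.0-fold above the next tumor, Apc knockout tumor 2, while double knockout tumor 2 lay near the bottom, so the groups overlapped over most of their range. The means were 8.80 ± 3.39 and 7.05 ± 1.79 (SD, n = 3 each), with a log2 fold change of 1.76 (SE 1.79, 95% confidence interval −2.59 to 6.10, limma adjusted p = 0.846). Without double knockout tumor 1 it was −0.04.

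Mcpt2, the neighboring chymase that is made alongside Mcpt1, had log2 signals of 12.54, 6.55 and 8.36 in double knockout tumors and 7.25, 8.44 and 5.94 in the Apc knockout tumors. The tumors fell in the same order as for Mcpt1, from double knockout tumor 1 through Apc knockout tumor 2, double knockout tumor 3, Apc knockout tumor 1 and double knockout tumor 2 to Apc knockout tumor 3. The first of them exceeded the next 17.1-fold. The log2 fold change was 1.94 (SE 1.54, 95% confidence interval −1.81 to 5.69, limma adjusted p = 0.832), and 0.25 without that tumor. Among the other 5 tumors the log2 signal still spanned 3.59 for Mcpt1 and 2.50 for Mcpt2, wider than for any other member. Over all 6 tumors the ranges of 7.17 and 6.60 ranked 3 and 7 among the 19506 sets.

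Cpa3 encodes the granule carboxypeptidase of mast cells. It was assigned here to the connective-tissue proteases, although mucosal mast cells and their progenitors make it too. Its log2 signals were 10.52, 5.92 and 6.62 in double knockout tumors and 6.50, 6.80 and 5.65 in the Apc knockout tumors. The 6 tumors had the order seen for Mcpt1 and Mcpt2, and double knockout tumor 1 was 13.1-fold above the next. The other 5 spanned 1.15 on the log2 scale, less than Mcpt1 or Mcpt2 did. The log2 fold change was 1.37 (SE 1.19, 95% confidence interval −1.51 to 4.25, limma adjusted p = 0.835), and −0.05 without double knockout tumor 1.

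Mcpt4 is the main chymase of connective-tissue mast cells. Its log2 signals were 7.93, 5.58 and 5.99 in double knockout tumors and 5.71, 5.86 and 5.37 in the Apc knockout tumors. Again double knockout tumor 1 was highest, 3.83-fold above the next tumor, and the other 5 lay within 0.62 of each other. The log2 fold change was 0.86 (SE 0.60, 95% confidence interval −0.60 to 2.32, limma adjusted p = 0.824), and 0.14 without double knockout tumor 1.

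Cma1, a mast cell protease with elastase activity in the mouse, had log2 signals of 6.24, 6.28 and 5.92 in double knockout tumors and 5.59, 5.56 and 5.93 in the Apc knockout tumors. Here double knockout tumor 1 did not stand out, and double knockout tumor 3 and Apc knockout tumor 3 had nearly the same signal. The log2 fold change was 0.45 (SE 0.16, 95% confidence interval 0.07 to 0.83), with an unadjusted p of 0.0273 and an adjusted p of 0.821 from limma. It was between 0.39 and 0.57 when any 1 tumor was left out. The two-sided exact permutation test gave p = 0.2. Cma1 passed the filter on level (5.88) through the double knockout group, its Apc knockout mean being 5.69. In the 6 tumors its signal was above only 16.6% to 26.2% of all probe sets, so it was low throughout.

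The tryptases differed from each other. Tpsb2, a tryptase that forms heparin-bound tetramers in granules, had log2 signals of 7.91, 6.92 and 6.93 in double knockout tumors and 7.14, 7.02 and 7.02 in the Apc knockout tumors. Tumor 1 of the double knockout group was 1.71-fold above the next, and the other 5 tumors lay within 0.22 of each other. The log2 fold change was 0.19 (SE 0.28, limma adjusted p = 0.895), and −0.14 without double knockout tumor 1. Tpsab1, which in this strain is known to carry a splice-site defect and is listed in RefSeq as a transcribed pseudogene, was at 5.96, 5.91 and 5.83 in double knockout tumors and 5.83, 5.83 and 5.98 in the Apc knockout tumors. Its 6 values lay within 0.16 of each other, and the log2 fold change was 0.02 (SE 0.10, 95% confidence interval −0.22 to 0.26, limma adjusted p = 0.974).

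**Figure D2:**
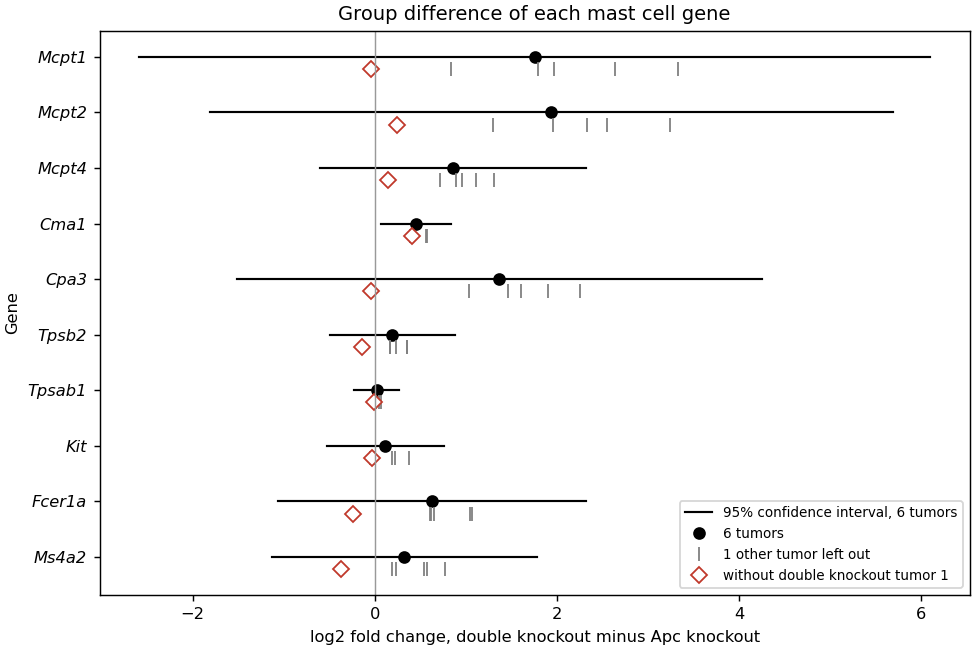
Log2 fold change of each mast cell gene, double knockout minus Apc knockout (black points, 6 tumors; lines, 95% confidence interval from limma), with the values after leaving out 1 tumor (ticks) and after leaving out double knockout tumor 1 (open red diamonds). Leaving out that tumor moved Mcpt1 from 1.76 to −0.04 and Cpa3 from 1.37 to −0.05, and left Cma1 close to its value of 0.45.

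Of the receptors, the α chain and the β chain of the high-affinity IgE receptor set double knockout tumor 1 apart and Kit did not. Fcer1a, the IgE-binding α chain, had log2 signals of 7.12, 4.54 and 4.51 in double knockout tumors and 4.73, 4.81 and 4.75 in the Apc knockout tumors. The other 5 tumors lay within 0.30 of each other, and double knockout tumor 1 was 4.97-fold above the next. Ms4a2, the signal-amplifying β chain, had log2 signals of 7.06, 4.76 and 5.17 in double knockout tumors and 5.08, 5.16 and 5.78 in the Apc knockout tumors, with double knockout tumor 1 at 2.43-fold above the next. Neither chain passed the filter on level, and in a fit of all sets without that filter their log2 fold changes were 0.62 (SE 0.70, limma adjusted p = 0.872) and 0.32 (SE 0.60, adjusted p = 0.924). Without double knockout tumor 1 these were −0.24 and −0.37.

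Kit had log2 signals of 9.89, 9.09 and 9.81 in double knockout tumors and 9.69, 9.62 and 9.13 in the Apc knockout tumors. Double knockout tumor 1 was highest by only 0.07, the lowest values were those of double knockout tumor 2 and Apc knockout tumor 3, and the groups overlapped throughout. The log2 fold change was 0.12 (SE 0.26, 95% confidence interval −0.52 to 0.76, limma adjusted p = 0.931), and it changed sign without double knockout tumor 1 (−0.03) or Apc knockout tumor 3 (−0.06). Kit is also made by interstitial cells of Cajal, the pacemakers of gut muscle, and by secretory cells of the colon crypt. Ano1, the chloride channel that marks interstitial cells of Cajal, was at 11.60 in double knockout tumor 2, where Kit was lowest, and between 8.76 and 9.73 in the other 5. The summed linear signal of 6 markers of interstitial cells of Cajal had a range of 2576 to 9373 over double knockout tumors and of 3065 to 4960 over Apc knockout tumors, and 3 of the 6 were highest in double knockout tumor 2 and 0 in double knockout tumor 1, where 28.5% and 7.66% of all sets tested were. For 8 markers of deep crypt secretory and goblet cells, the sums over double knockout tumors were 39900 to 69720. Over Apc knockout tumors they were 43120 to 64530. Of these 8 markers, 4 were highest in double knockout tumor 2 and 0 in double knockout tumor 1. The part of either cell type in the Kit signal was not tested.

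Over the members as a whole, double knockout tumor 1 was highest for 8 of 10, against 7.66% of the sets tested, a smaller share than any other tumor had among those sets, and 8.95% of all sets with a symbol, unfiltered. It was highest by at least 1 on the log2 scale for 6 of 10, against 0.118% of the sets tested (23 of 19506) and 0.115% of the unfiltered sets (27 of 23410). Of these 6, Fcer1a and Ms4a2 did not pass the filter, and Mcpt4 passed it through this tumor. Since the members were chosen with earlier results of these data known, these counts were given no p. Ranked by the distance of double knockout tumor 1 above the next tumor, Mcpt2 was number 1 of 19506 sets (4.09), Cpa3 number 2 (3.71), Mcpt1 number 3 (3.59) and Mcpt4 number 10 (1.94). Tpsb2 ranked 43 (0.77). Kit ranked 792, Tpsab1 1870 (−0.02) and Cma1 2260 (−0.04), so these 3 sat close to 0.

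**Figure D3:**
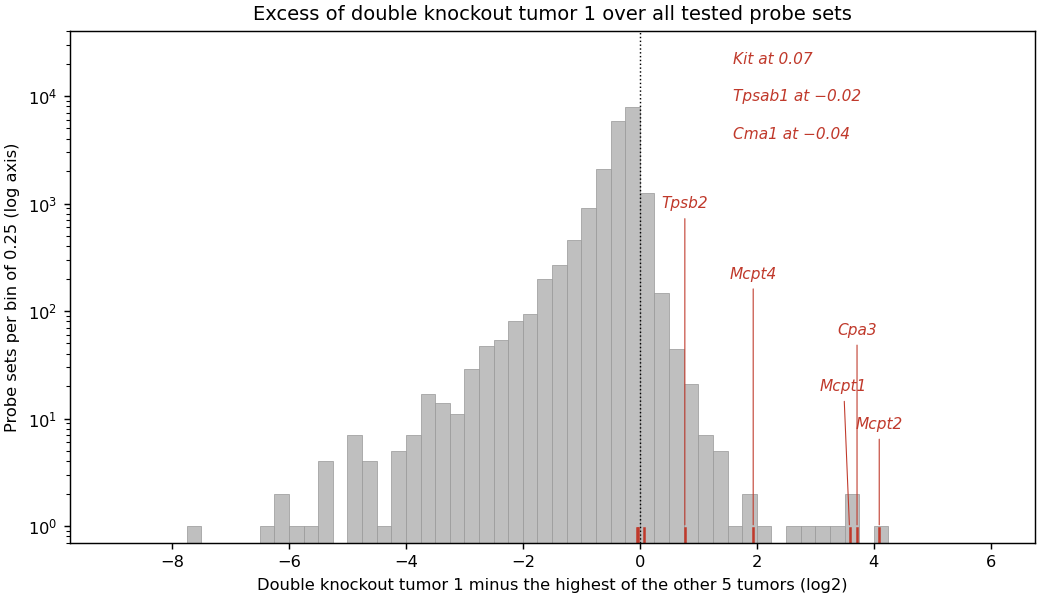
Distance of double knockout tumor 1 above the highest of the other 5 tumors, for all 19506 probe sets tested (gray, number of sets per bin on a log axis), with the 8 mast cell genes that were tested marked in red. Mcpt2 at 4.09, Cpa3 at 3.71 and Mcpt1 at 3.59 lie at the right end, and Kit, Tpsab1 and Cma1 lie beside 0.

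The mucosal and the connective-tissue proteases were compared as mean deviations, each gene first centred on its mean over the 6 tumors, with no test. The mean of Mcpt1 and Mcpt2 was at 4.41, −1.96 and 0.32 in double knockout tumors and at −0.87, 0.57 and −2.47 in the Apc knockout tumors, on the log2 scale. The mean of the 5 connective-tissue proteases was at 1.30, −0.29 and −0.15 in double knockout tumors and at −0.25, −0.19 and −0.42 in the Apc knockout tumors. Among the 5 tumors other than double knockout tumor 1, the mucosal mean moved over a wide range and the connective-tissue mean over a narrow one. In those 5 tumors Mcpt4, Cma1 and Tpsab1 were dim, above only 14.2% to 26.2% of all probe sets. Mcpt1 and Mcpt2 were above 12.7% to 64.3%. How far low signals narrowed the connective-tissue mean was not tested. Mucosal minus connective-tissue was 3.11, −1.67 and 0.47 in double knockout tumors and −0.62, 0.77 and −2.06 in the Apc knockout tumors. The mean of this difference was higher by 1.27 in double knockout tumors, and by 0.03 without double knockout tumor 1, against SDs of 2.39 and 1.41 within the groups (n = 3 each). With Cpa3 left out of the connective-tissue proteases it was 1.47.

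The pattern over the 6 tumors was compared by the root mean square difference of centred log2 values, over 18350 probe sets and as a description. The sets most like Mcpt1 were Mcpt2 (0.43), Cpa3 (1.01) and Pla2g4c, a cytosolic phospholipase A2 (1.47). Those most like Cpa3 were Pla2g4c (0.54), Mcpt2 (0.65) and Mcpt4 (0.78). Pla2g4c had log2 signals of 9.82, 6.38 and 7.03 in double knockout tumors and 6.73, 6.34 and 6.49 in the Apc knockout tumors, with double knockout tumor 1 again alone at the top. Those most like Kit were Tctex1d2, a dynein light chain gene (0.07), and 2 sets of Arsb, a lysosomal sulfatase (0.08 each), and no mast cell gene was among them. Small values are reached readily by sets of a small range, so values for Kit and for Mcpt1 are not on a common footing.

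The 4 chymases lie in a gene cluster on mouse chromosome 14 with the order, in RefSeq, Cma1, Cma2, Mcpt1, Mcpt2, Mcpt9, Mcpt4, Mcpt8, Ctsg and then the granzymes Gzme, Gzmd, Gzmg, Gzmn, Gzmf, Gzmc and Gzmb. Cma2 and Mcpt9 share 2 probe sets, and the signal of these sets cannot be divided between them. These sets were at 10.39, 6.47 and 7.29 in double knockout tumors and 6.51, 7.15 and 6.42 in the Apc knockout tumors, and at 8.76, 5.51 and 6.26 against 5.47, 6.04 and 5.55, with double knockout tumor 1 highest in each. Mcpt8, a protease of basophils, was at 5.84, 5.40 and 5.50 in double knockout tumors and 5.49, 5.29 and 6.11 in the Apc knockout tumors, so its highest value was in Apc knockout tumor 3. At the far end of the cluster, Gzmc was at 7.37, 5.33 and 5.88 against 5.75, 5.84 and 5.99, and Gzmb at 9.32, 7.09 and 8.25 against 7.87, 7.65 and 8.31. Both granzymes, which cytotoxic lymphocytes make, were highest in double knockout tumor 1 by at least 1 on the log2 scale. Ctsg, Gzme, Gzmd, Gzmg, Gzmn and Gzmf, which lie between Mcpt8 and Gzmc, did not reach that distance. Near-identical chymases could share labelled RNA across their probe sets, and the probes were not analysed here. A list of 9 genes (Tpsg1 and Prss genes) was read beside the tryptases. Of these, only Prss34, Prss28, Prss29 and Tpsg1 were among the genes read around Tpsb2 in RefSeq order. The 9 genes had 7 higher and 2 lower means, 0 at an unadjusted p under 0.05 and 0 highest in double knockout tumor 1. Over all sets tested, 52.3% had a higher mean, 5.6% were under that p by limma and 7.66% were highest in double knockout tumor 1.

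**Figure D4:**
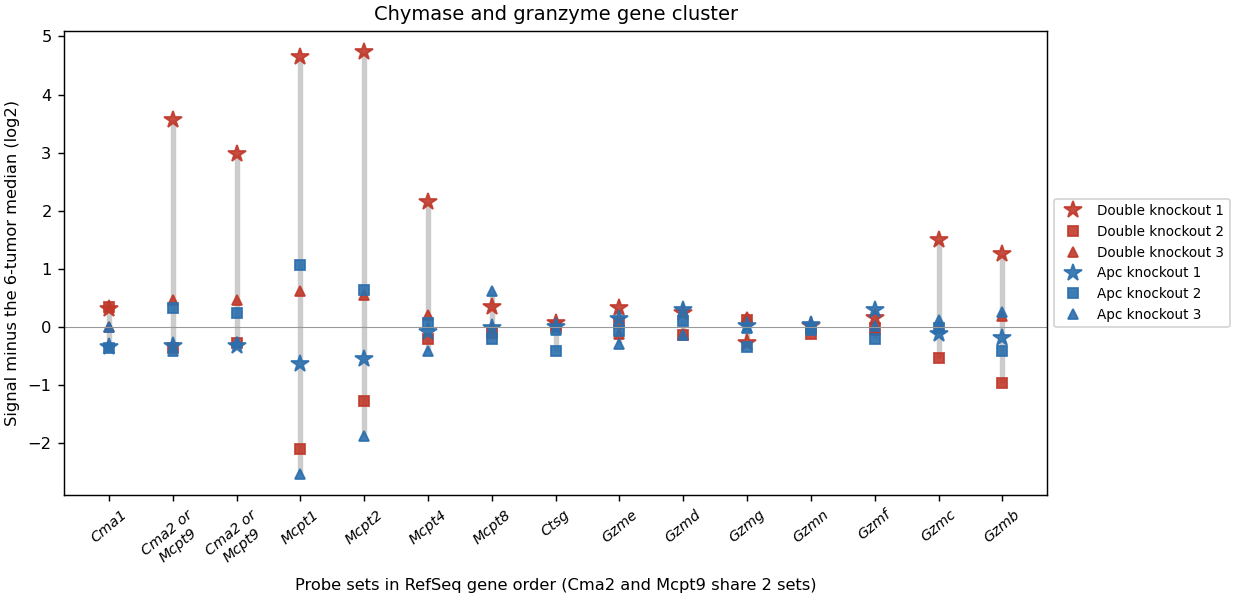
Log2 signal minus the median of the 6 tumors for each probe set of the chymase and granzyme cluster in RefSeq order (red, double knockout; blue, Apc knockout; gray bars, range of the 6 tumors). Double knockout tumor 1, the red star, is far above the rest for Mcpt1, Mcpt2, Mcpt4 and the sets shared by Cma2 and Mcpt9, and lies within the other tumors' values for Cma1 at 1 end of the cluster.

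Promoters were read because Mcpt1, Mcpt4 and Cpa3 were high in the same tumor while Cma1, a neighbor of Mcpt1, was not. RefSeq windows of GRCm38.p6 were found for 7 of the 10 members, and the 250 bases before the transcription start are used. The Mcpt1 window is chr14:56017714-56017963 on the plus strand. For Mcpt4 the window is chr14:56062311-56062560, minus strand, for Cma1 chr14:55944676-55944925, minus strand, and for Cpa3 chr3:20242182-20242431, minus strand. Each is printed 5′ to 3′ along the gene, ending at the base before the start, with matches to GATAA, the core bound by GATA factors, or to its reverse complement TTATC in capitals.
Mcpt1: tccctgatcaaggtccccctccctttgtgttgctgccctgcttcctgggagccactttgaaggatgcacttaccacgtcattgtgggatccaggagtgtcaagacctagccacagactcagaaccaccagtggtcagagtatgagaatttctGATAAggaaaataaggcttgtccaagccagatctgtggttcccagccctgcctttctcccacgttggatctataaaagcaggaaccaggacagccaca
Mcpt4: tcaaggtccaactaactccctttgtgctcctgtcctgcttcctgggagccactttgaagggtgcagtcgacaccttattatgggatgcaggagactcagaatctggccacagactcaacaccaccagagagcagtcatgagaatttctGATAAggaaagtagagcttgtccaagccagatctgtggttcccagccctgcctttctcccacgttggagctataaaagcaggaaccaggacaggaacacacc
Cma1: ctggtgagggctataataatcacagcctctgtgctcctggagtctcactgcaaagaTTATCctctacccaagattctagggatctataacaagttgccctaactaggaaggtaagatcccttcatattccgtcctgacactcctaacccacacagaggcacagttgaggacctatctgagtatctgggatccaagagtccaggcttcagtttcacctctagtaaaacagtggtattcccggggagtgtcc
Cpa3: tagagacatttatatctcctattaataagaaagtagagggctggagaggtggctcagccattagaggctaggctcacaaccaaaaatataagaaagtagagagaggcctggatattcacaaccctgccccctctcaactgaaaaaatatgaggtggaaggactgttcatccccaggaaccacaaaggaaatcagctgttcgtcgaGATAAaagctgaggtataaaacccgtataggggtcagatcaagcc

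The Mcpt1 and Mcpt4 windows were alike: 213 of 260 aligned columns were identical (81.9%), and the longest run shared without a gap or mismatch was 53 bases. The Mcpt1 and Cma1 windows shared 51.3% of columns, and the Mcpt1 and Cpa3 windows 48.1%. GATAA was found, on either strand, in 6 of the 7 member windows (all but Kit) and in 22.6% of 32851 RefSeq windows. It lay 98 to 94 bases before the start in Mcpt1, 102 to 98 in Mcpt4 and 45 to 41 in Cpa3, and on the reverse strand 194 to 190 bases before the start in Cma1. Matches were held by Mcpt1, Mcpt4, Cpa3, Fcer1a and Ms4a2, which set double knockout tumor 1 apart, and by Cma1, which did not. Kit, which did not either, held none. Whether GATAA bears on this pattern was not tested. The Smad motif CAGAC was found in Mcpt1 and Mcpt4 (2 of 7, against 42.2% of all windows), the E-box CATGTG in 1 of 7 (12.3%), the E-box CACGTG in 0 of 7 (6.02%) and the AP-1 motif TGACTCA in 0 of 7 (4.46%). No match to GATAA overlapped a match to another of these motifs. A match is a description of the letters, and no match says only that they are not in this window.

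Other mast cell genes were read from a list of granule, lipid mediator and surface receptor genes outside the chymase cluster. Of 19 listed genes, 17 were matched and 14 tested. Of those tested, 6 had higher and 8 lower means, and 0 were at an unadjusted p under 0.05 from limma. The median log2 fold change over the 17 matched was −0.02. Of all sets tested, 52.3% had a higher mean and 5.6% were under that p in either direction. Double knockout tumor 1 was highest for 8 of the 17, for none of them by 1 or more on the log2 scale. Over all sets that tumor was highest for 7.66% of those tested and 8.95% of those with a symbol, unfiltered. Tph1, the serotonin-synthesis enzyme that mast cells and enterochromaffin cells make, was at 8.17, 7.68 and 6.09 in double knockout tumors and 6.67, 6.46 and 5.94 in the Apc knockout tumors (limma adjusted p = 0.821). Alox5ap, needed for leukotriene synthesis, had a log2 fold change of −0.51, Ndst2, which sulfates heparin, of −0.17 and Gata2, a transcription factor of mast cells, of −0.32. Chosen after their values were seen, Slc18a2, the transporter that loads amines into granules, was at 6.81 in double knockout tumor 1 and 5.95 to 6.32 in the others. Hdc, the histamine-forming enzyme, was at 10.32 there and 8.08 to 11.18 in the others. Mrgprb2, a receptor of connective-tissue mast cells, was at 4.03 to 4.42 in all 6 tumors. That is below the filter on level, so its flat values do not tell whether its expression differed.

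No gene for growth and homing passed the adjusted threshold either. Of 17 matched, 14 were tested. Of those tested, 8 had higher and 6 lower means, and 0 were at an unadjusted p under 0.05 from limma. The median log2 fold change over the 17 matched was 0.07. Of all sets tested, 52.3% had a higher mean and 5.6% were under that p in either direction. Kitl, the ligand of Kit, was at 11.43, 10.30 and 11.70 in double knockout tumors and 11.74, 11.12 and 11.76 in the Apc knockout tumors, with double knockout tumor 2 the lowest. Itgb7, part of the integrin that brings mast cell progenitors into the gut, was at 8.01 in double knockout tumor 1 and 7.38 to 7.61 in the other 5, with a log2 fold change of 0.27. Itga4, its partner chain, had a log2 fold change of 0.29, the interleukin 9 receptor Il9r of 0.18 and the chemokine receptor Cxcr2 of −0.85. Of 11 transcription factors, 7 had higher and 4 lower means, and 1 was under an unadjusted p of 0.05: Smad3, which carries TGF-β signals, with a log2 fold change of −0.32. Gata1 (0.08) and Stat5b (0.11) differed little.

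Of 13 matched genes that signal from the IgE receptor, 4 had higher and 9 lower means, with a median of −0.14. The 2 under an unadjusted p of 0.05 were Vav1, a guanine nucleotide exchange factor (log2 fold change −0.59), and Gab2, an adaptor (−0.45). Plcg1 (−0.43) and Ptpn6 (−0.16) were the next by p. Of 8 genes of histamine handling, 6 were tested, and Hrh1, the receptor for histamine on muscle and endothelium, was the only one under an unadjusted p of 0.05 (0.37). Aoc1, which degrades histamine, had a log2 fold change of 0.72 (SE 0.66), Hnmt, which methylates it, of 0.21 and the receptor Hrh3 of −0.18. Hnmt did not reach the filter on level, so its value is from the fit of all sets. Over these lists 0 genes passed the adjusted threshold, as for all sets. Of all sets tested, 52.3% had a higher mean, and 1.78% were higher and 3.82% lower at an unadjusted p under 0.05 from limma.

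Markers of other leukocytes were read beside the members, since several could share their genes. Over all sets, double knockout tumor 1 was highest for 7.66% of those tested and 8.95% of those with a symbol, unfiltered. Double knockout tumor 2 was highest for 28.5% of those tested. The pan-leukocyte genes were highest in double knockout tumor 1 for 4 of 5, with a summed linear signal of 3317 to 5038 over double knockout tumors and 3065 to 3558 over Apc knockout tumors. Ptprc, which encodes CD45, was at 9.89, 9.16 and 9.07 in double knockout tumors and 8.93, 8.67 and 9.34 in the Apc knockout tumors. Of 9 T and NK cell genes, 7 were highest in double knockout tumor 1, with a summed signal of 1069 to 1723 against 930.7 to 1334, and Nkg7, a granule protein of cytotoxic cells, was at 7.99 there and at 6.36 to 7.12 elsewhere. For none of these genes did double knockout tumor 1 lead by 1 or more on the log2 scale. Basophils also make Fcer1a, Ms4a2 and Cpa3. Of 7 basophil genes 3 were highest in double knockout tumor 1, with a summed signal of 2143 to 2808 against 2542 to 3575. That sum mostly follows Itga2 (log2 10.41 to 11.38 over all tumors) and Il3ra (8.96 to 9.57), which other cells can make. The other basophil genes were at 4.72 to 6.30, so the sum does not measure basophils. The means of Mcpt8 and Cd200r3, their defining genes, did not reach the filter on level. Of 5 B and plasma cell genes 1 was highest in double knockout tumor 1 and 3 in double knockout tumor 2, with a summed signal of 406.4 to 988.3 against 381.1 to 438. The gene highest in double knockout tumor 1, Jchain, of plasma cells, was at 8.59, 8.45 and 5.26 against 5.21, 4.80 and 5.61, close in double knockout tumors 1 and 2. Neutrophil markers ran the other way: 10 of 11 had a lower mean in double knockout tumors, with 4 under an unadjusted p of 0.05 (Retnlg, Ngp, S100a9 and Mmp8), and 0 were highest in double knockout tumor 1 (summed signal 1286 to 3639 against 3071 to 7450). Of all sets tested, 52.3% had a higher mean in double knockout tumors, and 3.82% were lower at an unadjusted p under 0.05 from limma. The part of these other cells in the signals of the members was not tested.

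**Figure D5:**
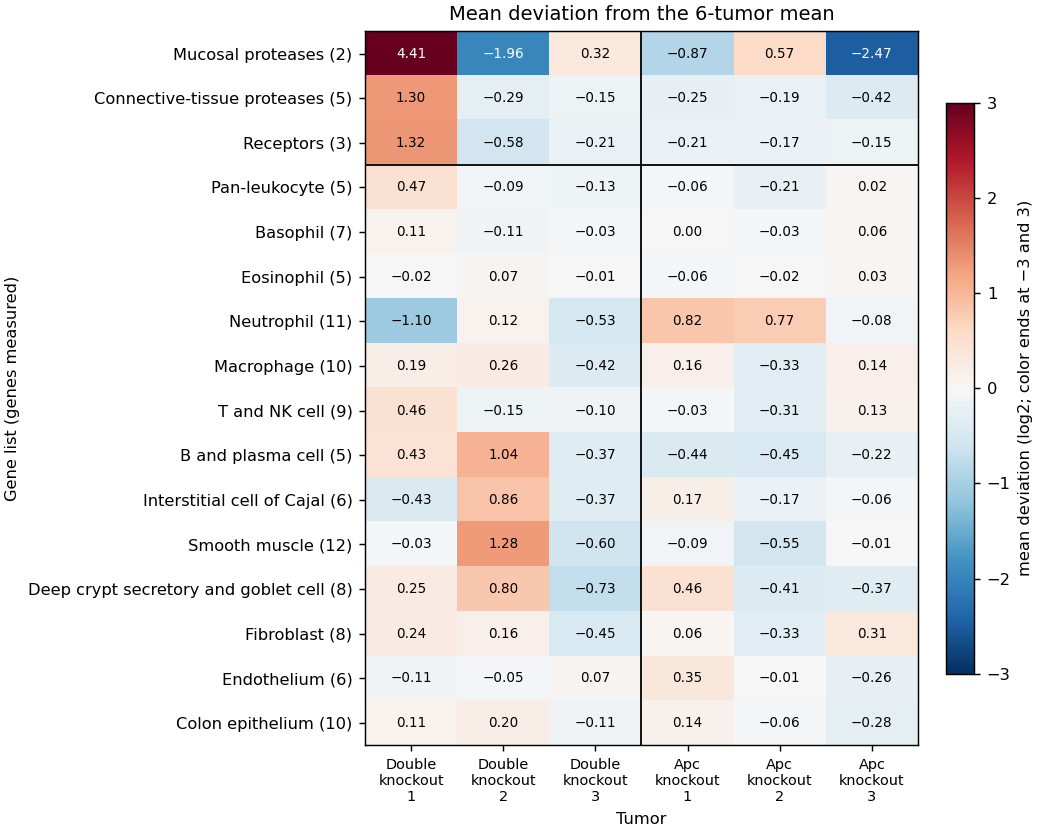
Mean deviation from the 6-tumor mean (log2) for the 3 classes of mast cell genes and for marker lists of other cell types, by tumor, with the number of genes measured in brackets. Mucosal proteases reach 4.41 in double knockout tumor 1, against 0.47 for pan-leukocyte and 0.46 for T and NK cell genes, and the smooth muscle list is highest in double knockout tumor 2 at 1.28.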

How the data were processed

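Colon tumors of 3 double knockout mice and 3 Apc knockout mice were measured each mouse on its own array. The description of each array carries a number of its own after the genotype, which was taken for that of the mouse. If it is not, the p-values measure only the spread between these samples. The authors dissected tumor tissue by laser, hybridized Affymetrix Mouse Gene 1.0 ST arrays and deposited log2 values processed with RMA in GeneSpring GX, that is background-corrected, quantile-normalized and summarized by probe set. RMA can compress differences of dim sets. No detection call was used, and precision is limited by how few arrays there are. The RMA version is not given in the sources used here. Array medians were 7.68 to 7.80, and 0 columns of other samples were left out.

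Of 35556 probe sets, 21789 have 1 gene symbol in the platform annotation, 1621 several and 12146 none, and 21698 of the single-symbol sets have a gene identifier in RefSeq (GRCm38.p6), all 10 members included. The set with the highest mean was to be used per gene, and each member had only 1. Sets with a symbol whose mean reached the 20th percentile (5.88) were tested with limma 3.58.1 in R 4.3.3, two-sided and without covariates, and p was adjusted after Benjamini-Hochberg over all 19506 sets and a threshold of 0.05. The methods state a cut-off of 20% on poorly reproducible entities without naming its measure, and the filter on level stands in its place. Members under the filter were read from a fit of all sets. The unpaired t-test of the methods, which do not state the variances, was run with equal variances as an alternative. Exact permutation tests were run per gene. The fit was tested on simulated data. Summed signals are sums of linear values.

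The members, the gene lists, the motifs and the rule for named genes were chosen with earlier results of these data known. The rule took all members, up to 4 genes of smallest limma p in each list, the genes of the protease loci, the 3 sets most like Mcpt1, Cpa3 and Kit, Tgfbr2, Apc, Kitl, and defining genes of the marker lists such as Mcpt8, Ptprc and Ano1. Not all genes it allows are named, and other genes are named as chosen afterwards. Symbols on sets with several symbols entered no list. Promoter windows were the RefSeq bases before the start, aligned globally with Biopython 1.88 in Python 3.11.15 (match 1, mismatch −1), and figures were drawn with matplotlib 3.10.9. Alternatives were other filters on level, the t-test, a replicate block, array weights, median centring, a second quantile normalization, robust eBayes with a trend and leaving out each tumor. Protein sequences, probe sequences and the quantitative PCR of the study were not analysed here.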

Additional observations from a re-analysis of the deposited data

How the results depend on the processing

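Log2 fold changes of the members kept their sign under other filters on level, the t-test of the methods, median centring, a second quantile normalization and robust eBayes with a trend, and none of those tested passed the adjusted threshold. The t-test and robust eBayes were run on the 8 that passed the filter on level. Leaving out 1 tumor gave 0 adjusted calls among all sets, members and companion lists alike. It moved the median log2 fold change of the members between −0.03, when double knockout tumor 1 was left out, and 0.91, when double knockout tumor 2 was, and the mucosal minus connective-tissue difference between 0.03 and 2.42 for the same tumors. The ranges were −0.038 to 3.34 for Mcpt1, 0.25 to 3.24 for Mcpt2, 0.14 to 1.31 for Mcpt4, −0.046 to 2.25 for Cpa3, −0.14 to 0.36 for Tpsb2, −0.0102 to 0.0699 for Tpsab1, −0.058 to 0.37 for Kit, −0.24 to 1.07 for Fcer1a and −0.37 to 0.78 for Ms4a2. Double knockout tumor 1 stayed highest for 8 or 9 of 10 members, and by at least 1 on the log2 scale for 6, when another tumor was left out or the arrays were rescaled, which was tried after the data had been seen.

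Weighting the arrays, by an estimate that did not converge, let 2744 sets and 5 members pass: Mcpt1 at 4.78, Mcpt2 at 4.79, Mcpt4 at 2.01, Cma1 at 0.60 and Cpa3 at 3.61, with adjusted p-values from limma of 0.0151 to 0.0306. The weights were 6.86 for double knockout tumor 1, 5.39 for Apc knockout tumor 1 and 0.208 to 0.621 for the other 4, so this fit compares mainly 2 tumors. With the replicate number as a block, 0 sets passed the adjusted threshold and 1350 an unadjusted p under 0.05, against 1092 without it, with 0 members among them. Deviations of same-numbered tumors had correlations of −0.203, −0.065 and 0.092, within the −0.214 to 0.26 of differently numbered ones. The labels give no pairing, and with 3 tumors a group these correlations cannot exclude one. At a 40th percentile filter (7.15) only Mcpt1, Mcpt2, Tpsb2 and Kit were tested.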

Other observations

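For 23 sets double knockout tumor 1 was highest by at least 1 on the log2 scale. Some of those beside the mast cell and granzyme genes are given here, named after their values were seen. Others, among them sets of Igkc and Xlr4 genes, Apol7c, St3gal5, Npbwr1 and Gpr141b, are not described. A set shared by Igkv10-96 and Igkj1, of the immunoglobulin κ light chain, was at 11.42 in double knockout tumor 1, 7.98 in double knockout tumor 2 and 5.95 to 6.49 in the other 4. A set shared by H2-T3 and H2-T18, nonclassical MHC class I genes, was at 8.88 there and at 6.06 to 6.81 in the others. Ccl8, a chemokine, was at 9.28 against 6.84 to 7.30, and Ccl24, an eosinophil chemokine, at 8.64 against 6.69 to 7.51. Cpm, a membrane carboxypeptidase, was at 11.86 against 9.62 to 10.65. No test was run on these sets, since they were chosen for this pattern.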
